A study of Caenorhabditis elegans with 46 samples.

Results

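DPL-1, LIN-35 and LIN-54 are the 3 subunits that stand for the 3 pieces of the DRM complex, the *C. elegans* form of the DREAM complex. DPL-1 is the DP subunit of the E2F-DP heterodimer, which binds DNA at a cell cycle-dependent element (CDE). LIN-54 is the DNA-binding subunit of MuvB, which recognises a cell cycle homology region (CHR). LIN-35 is the only pocket protein of the worm and is not known to bind a DNA sequence by itself. In the standing model of the complex it holds the E2F-DP dimer on one face and LIN-52 of MuvB on the other, so that it would bridge both DNA-binding pieces at a promoter. DRM represses cell cycle and germline genes in somatic cells.

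The regions described here were those in which the wild-type (WT) peak lists of DPL-1, LIN-35 and LIN-54 each placed exactly 1 peak, after peaks that overlapped by at least 1 bp had been merged. There were 1456 such regions among 2808 merged regions (51.9%). The summit of a peak, the base that the peak caller took as its centre, was used as the position of a subunit, and the order and spacing of the 3 summits were compared.

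The peaks came from chromatin immunoprecipitation and sequencing (ChIP-seq) of late embryos of the N2 (Bristol) strain, the WT. Embryos from bleached adults were left for up to 3.5 h, frozen, and crosslinked for 10 min in 1% formaldehyde. For the comparison without LIN-35, *lin-35(n745)* embryos were used, which make no LIN-35 protein and carry no other named allele. The *lin-35* null worms were grown for 96 h before harvest and WT worms for 72 h. A late embryo is a mixture of many cell types, mostly somatic, so a summit is an average over all of them.

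The series holds 46 samples. Of these, 8 are the WT libraries of the 3 subunits: 3 of DPL-1, 2 of LIN-35 and 3 of LIN-54. One pooled list was used for each subunit, with 1771 DPL-1, 2291 LIN-35 and 2290 LIN-54 peaks. Neither read counts nor replicate-level values are part of these lists, so that depth and replicate error are unknown, and every interval and test below counts regions within these lists. Embryo extracts, each with its own input library, were shared unevenly by the replicate labels. Both LIN-35 extracts were also used for LIN-54, and 1 of them for DPL-1, while DPL-1 and LIN-54 had 2 extracts in common. The third WT replicate of DPL-1 and LIN-54 and all *lin-35* null libraries were made by a later library protocol, and LIN-35 has no WT library of that kind. Peak width was the same for all peaks of a list, 390 bp for DPL-1, 290 bp for LIN-35 and 404 bp for LIN-54, and each summit was the exact centre of its peak.

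The rule took in most DPL-1 peaks and the stronger part of the other lists. The members held 82.2% of all DPL-1 peaks, 63.6% of LIN-35 peaks and 63.6% of LIN-54 peaks. Signal was ranked as a percentile inside its own list, since the scale is not shared between lists. The median percentile of member peaks was 57.5 for DPL-1, 66.8 for LIN-35 and 67.1 for LIN-54, against 21.01, 20.4 and 23.2 for the other peaks of the same 3 lists. The remaining regions were mostly of 1 or 2 subunits: 485 held LIN-54 peaks only, 357 LIN-35 only, 213 LIN-35 and LIN-54, 205 DPL-1 and LIN-35, 38 DPL-1 and LIN-54, and 17 DPL-1 only. A further 37 regions held all 3 subunits with more than 1 peak of at least 1 of them.

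The overlap threshold of the rule was far from the members. In all 1456 regions every peak overlapped both others, and the smallest overlap of any 2 peaks was 165 bp. Just outside the rule, the closest case was a region with DPL-1 and LIN-35 peaks that ended 18 bp from a LIN-54 peak.

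The 3 summits lay within a few base pairs of each other. The median distance was 3 bp between DPL-1 and LIN-35 (quartiles 1 and 8 bp), 5 bp between LIN-35 and LIN-54 (quartiles 1 and 11 bp), and 5 bp between DPL-1 and LIN-54 (quartiles 2 and 12 bp). The exact 95% interval of the median over regions was 3 to 3 bp, 4 to 5 bp and 4 to 6 bp for these pairs. LIN-35 was therefore closer to DPL-1 than to LIN-54 in the median, while the LIN-35 to LIN-54 and DPL-1 to LIN-54 intervals overlapped. DPL-1 and LIN-35 summits were within 10 bp of each other in 1217 regions (83.6%), LIN-35 and LIN-54 summits in 1054 (72.4%), and DPL-1 and LIN-54 summits in 1044 (71.7%).

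**Figure D1:**
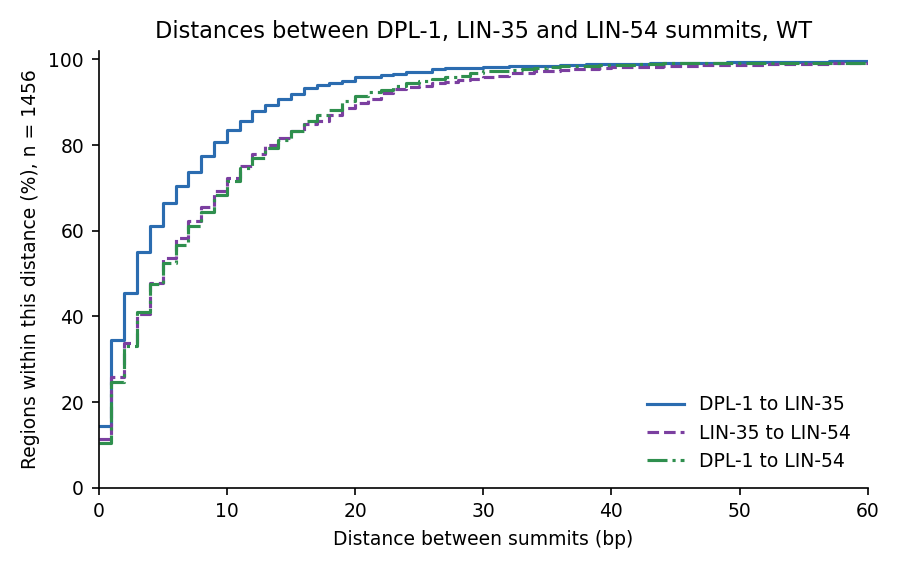
Share of the 1456 WT regions (y axis, percent) in which 2 summits lay within a given distance (x axis, bp), with 1 line for each pair of subunits. The DPL-1 to LIN-35 line runs above both others, with 83.6% of regions within 10 bp against 72.4% and 71.7%.

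The span from the leftmost to the rightmost of the 3 summits had a median of 8 bp (quartiles 3 and 16 bp). It was at most 10 bp in 886 regions (60.9%) and at most 25 bp in 1326 (91.1%), and exceeded 50 bp in 24 (1.65%). These spans are small beside the peaks themselves, the narrowest of which were 290 bp wide.

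Along the chromosome the signed distances were centred on 0. DPL-1 to LIN-35 averaged 0.0975 ± 11.7 bp (SD over 1456 regions), LIN-35 to LIN-54 averaged 0.536 ± 16.8 bp, and DPL-1 to LIN-54 averaged 0.634 ± 13.9 bp, and all 3 medians were 0 bp. LIN-54 lay to the right of DPL-1 in 662 regions and to the left in 642. Chromosome direction has no bearing on a gene's direction, and these values serve as a baseline for the oriented ones.

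Whether LIN-35 lies between the subunits that touch DNA was asked next. LIN-35 was strictly in the middle in 402 regions (27.6%, exact Clopper-Pearson 95% interval 25.3 to 30.0%), DPL-1 in 390 (26.8%, 24.5 to 29.1%) and LIN-54 in 215 (14.8%, 12.98 to 16.7%). In the other 449 regions (30.8%) the middle summit fell on the same base as another, so that no order could be given. LIN-35 took the middle place more often than LIN-54, in 65.2% of the 617 regions that had 1 of them there (adjusted p = 2.5e-13, two-sided exact binomial test over regions, Benjamini-Hochberg over 11 tests). LIN-35 and DPL-1 were not told apart: LIN-35 held the middle in 50.8% of 792 regions (interval 47.2 to 54.3%, adjusted p = 0.771 by the same exact test). Each subunit has 1 pooled list, so these p values do not cover how a list would vary between replicates.

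All 6 orders along the chromosome were common. DPL-1, LIN-35, LIN-54 from left to right was seen in 212 regions and its mirror image in 190. LIN-35, DPL-1, LIN-54 was seen in 203 and its mirror image in 187. The orders with LIN-54 inside were seen 105 times, as DPL-1, LIN-54, LIN-35, and 110 times in the mirror image.

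The middle place rested on small steps. Among the 1007 regions with an order, the middle summit was a median of 2 bp from the nearer outer one, and it was more than 10 bp away in 47 regions (3.23% of all members). When summits closer than 10 bp were called tied, LIN-35 was in the middle in 1.31% of regions, DPL-1 in 2.06% and LIN-54 in 0.549%, and the difference between LIN-35 and LIN-54 no longer passed the test (70.4% of 27 regions, adjusted p = 0.192, exact binomial test).

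Ties were of every kind. All 3 summits fell on 1 base in 39 regions (2.68%). DPL-1 and LIN-35 alone coincided in 170 regions (11.7%), LIN-35 and LIN-54 in 127 (8.72%), and DPL-1 and LIN-54 in 113 (7.76%). DPL-1 with LIN-35 was thus the most frequent pair, which is also the pair with the shortest median distance.

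Median distances were shorter in regions of higher signal. The regions were divided into 4 signal groups of 364 by the mean percentile of their 3 peaks, with bounds at 40.1, 63.0 and 82.4. From the lowest to the highest signal group the median outer span was 14, 10, 6 and 4 bp. The DPL-1 to LIN-54 median was 8, 6, 4 and 3 bp, the LIN-35 to LIN-54 median 9, 7, 4 and 3 bp, and the DPL-1 to LIN-35 median 6, 4, 2 and 1 bp. The exact intervals of the DPL-1 to LIN-54 median did not overlap between the lowest signal group (7 to 10 bp) and the highest (3 to 4 bp).

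The middle place was then counted by signal. LIN-35 was in the middle in 110, 94, 104 and 94 regions from the lowest to the highest signal group (30.2, 25.8, 28.6 and 25.8%). The odds ratio of the highest against the lowest signal group was 0.804, which did not pass the test (adjusted p = 0.389, two-sided Fisher's exact test). With summits closer than 10 bp called tied, it was 0.109 (adjusted p = 0.114, Fisher's exact test). DPL-1 was in the middle in 140, 114, 77 and 59 regions, and LIN-54 in 66, 70, 48 and 31. Regions with tied summits numbered 48, 86, 135 and 180, and the odds ratio counts them among those without LIN-35 in the middle. It therefore does not separate a change in order from a change in ties. The LIN-35 share among regions with an order was not tested between signal groups.

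**Figure D2:**
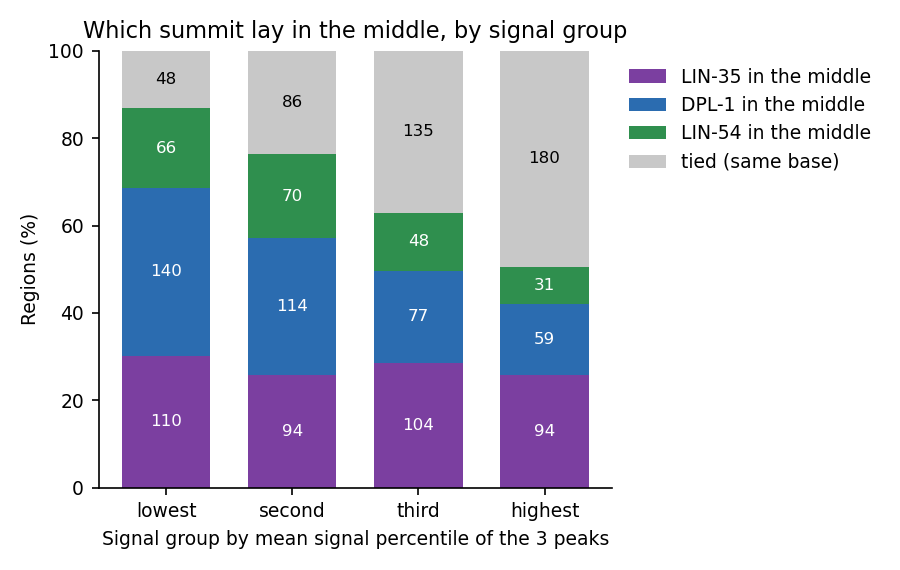
Stacked bars of the share of regions (y axis, percent) with LIN-35, DPL-1 or LIN-54 in the middle or with tied summits, in 4 signal groups of 364 regions ordered by mean signal percentile (x axis). Numbers in the bars are regions, and ties grow from 48 in the lowest to 180 in the highest signal group while the LIN-35 part stays between 94 and 110.

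DPL-1 had the higher count of middle places in the lower 2 signal groups and LIN-35 in the upper 2. Of the regions with 1 of them in the middle, LIN-35 held 44.0% in the lowest signal group (interval 37.8 to 50.4%), 45.2% in the second (38.3 to 52.2%), 57.5% in the third (49.9 to 64.8%) and 61.4% in the highest (53.2 to 69.2%). The signal groups were not tested against each other for this share. With only the 1000 highest peaks of each list, which left 835 regions, LIN-35 held the middle more often than DPL-1 (57.4% of 390 regions, adjusted p = 0.00704, exact binomial test).

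Members had shorter median distances and higher median signal percentiles than regions with peaks of only 2 of the 3 subunits. The LIN-35 to LIN-54 median was 5 bp in members, against 10 bp in 211 regions where these alone each had 1 peak. The DPL-1 to LIN-35 median was 3 bp in members, against 5 bp in 205 regions of that pair. The DPL-1 to LIN-54 median was 5 bp in members, against 11.5 bp in 34 regions of that pair. The median percentile over both peaks was 65.9, 61.9 and 61.9 in members for these 3 pairs, against 17.9, 29.2 and 28.9 in the regions of 2 subunits, and the part of signal in these distances was not tested. No test was made between the kinds of region.

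Chromosomes differed little in spacing. The median outer span was 9 bp on chromosome I (324 regions), 8 bp on II (271), 7 bp on III (335), 9 bp on IV (245), 8 bp on V (221) and 7 bp on X (60). In the same order, LIN-35 was in the middle in 25.3, 27.3, 25.4, 31.4, 33.9 and 15.0% of them. X had 9 such regions, and no test was made between chromosomes.

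Most members could be placed beside a gene. Of the 1456 regions, 1355 overlapped a site of the paper's table of DRM sites, and 1351 matched 1 site alone. By the paper's gene assignments 661 of these were single-gene promoters, 406 bidirectional promoters that serve 2 genes, 136 introns, 105 intergenic sites and 43 transcription termination sites. The median outer span was 7 bp at single-gene promoters, 8 bp at bidirectional promoters, 7 bp at intergenic sites, 9 bp at termination sites and 11 bp in introns. Introns also had the lowest signal of these, with a median mean percentile of 43.0, against 72.0 at single-gene promoters. The 101 regions that overlapped no site had a median span of 13 bp and a median mean percentile of 30.8.

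The middle place was taken by LIN-35 at 193 single-gene promoters (29.2%) and DPL-1 at 154 (23.3%). At bidirectional promoters LIN-35 took it at 104 (25.6%) and DPL-1 at 110 (27.1%), and in introns LIN-35 at 36 (26.5%) and DPL-1 at 40 (29.4%). No test was made between these locations.

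An order set by the gene would show as a shift in the direction of transcription. The strand of a single-gene promoter could be worked out for 32 of 661, from genes with several sites or from neighbouring gene order, which makes this a small part. DPL-1 lay upstream of LIN-54 in 10 of 27 such promoters with different summits (37.04%, interval 19.4 to 57.6%, adjusted p = 0.389), DPL-1 upstream of LIN-35 in 12 of 27 (44.4%, 25.5 to 64.7%, adjusted p = 0.771) and LIN-35 upstream of LIN-54 in 11 of 26 (42.3%, 23.4 to 63.1%, adjusted p = 0.766), all by exact binomial tests. No pair passed the threshold, and the intervals were wide. LIN-35 lay in the middle in 5 of the 32.

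At bidirectional promoters the left and right gene face apart, so that 396 of 406 could be oriented to the nearer gene. DPL-1 lay upstream of LIN-54 in 153 and downstream in 204 of the 357 with different summits (42.9% upstream, interval 37.7 to 48.2%, adjusted p = 0.0148, exact binomial test). The LIN-54 summit was thus more often on the side away from the nearer gene, by a median of 1 bp, with quartiles from 6 bp upstream to 3 bp downstream of DPL-1. DPL-1 lay upstream of LIN-35 in 148 of 326 (45.4%, adjusted p = 0.17) and LIN-35 upstream of LIN-54 in 159 of 346 (46.0%, adjusted p = 0.201), which did not pass the same exact test. When summits closer than 10 bp were called tied, a setting chosen for these promoters after seeing the data, the DPL-1 to LIN-54 share was again 42.9%, of 126 regions, with an adjusted p of 0.279 (exact binomial test).

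By signal, DPL-1 was upstream of LIN-54 at 29 bidirectional promoters and downstream at 32 in the lowest signal group, at 37 and 47 in the second, 50 and 53 in the third, and 37 and 72 in the highest. The highest signal group had the lowest share upstream, 33.9% (interval 25.2 to 43.6%), but the signal groups were not tested against each other.

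Sites with a sequence mark had higher signal. At the 694 sites marked by the study with its *de novo* motif, a joined CDE and CHR, the median outer span was 7 bp and the median mean percentile 76.4, against 8 bp and 57.6 at the 657 sites without it. It was LIN-35 that lay in the middle in 188 sites with the motif (27.1%) and in 185 without it (28.2%). DPL-1 was in the middle in 154 with the motif (22.2%) and in 192 without it (29.2%). Summits were tied in 245 with the motif (35.3%) and in 192 without it (29.2%). The shares are of all sites, tied ones included.

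The balance of LIN-35 against DPL-1 was also counted by motif within each signal group. In the lowest group LIN-35 was in the middle at 29 sites with the motif and DPL-1 at 43, against 59 and 64 at sites without it. In the second the counts were 28 and 41 with the motif, against 59 and 64 without it. In the third they were 57 and 33 with it, against 47 and 43 without it. In the highest they were 74 and 37 with it, against 20 and 21 without it. From the lowest to the highest group the median outer span was 15.5, 9, 6 and 4 bp with the motif, against 13, 10, 6 and 3 bp without it. The shorter span at motif sites was thus not seen in every signal group. These counts and spans are a description and were not tested.

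Sites with both a conserved CDE and a conserved CHR, the presumed binding sites of E2F-DP and LIN-54, had a median outer span of 6 bp (559 sites), against 9 bp at sites with neither (388). The middle summit was that of LIN-35 in 27.2% of sites with both and 27.8% of those with neither, while 36.3 and 28.9% were tied. The median mean percentile was 74.5 with both and 54.6 with neither. At the 405 HOT sites, where a large number of other transcription factors also bind, LIN-35 was in the middle in 29.4% and the median outer span was 7 bp, against 26.8% and 8 bp at 946 other sites.

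To see how the place of LIN-35 depends on its neighbours, the 4 other WT subunits were brought in: EFL-1, the E2F partner of DPL-1, and LIN-9, LIN-37 and LIN-52 of MuvB. LIN-35 had 2 extracts in common with LIN-9 and 0 with EFL-1 or LIN-52, and the part of shared extracts in what follows was not tested. Merging all 7 lists gave 3086 regions, and 1212 held exactly 1 peak of each. LIN-35 was between DPL-1 and LIN-54 in 326 of them (26.9%, interval 24.4 to 29.5%). It was between DPL-1 and EFL-1, which are both E2F-DP, in 331 (27.3%), and the 2 shares were not told apart (adjusted p = 0.824, two-sided exact McNemar test over the same regions).

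Between LIN-54 and another MuvB subunit LIN-35 was less often in the middle, and MuvB pairs without LIN-54 were not counted. The share was 26.9% between DPL-1 and LIN-54, against 19.4% between LIN-54 and LIN-9 (235 regions, adjusted p = 3.2e-05), 20.3% between LIN-54 and LIN-37 (246, adjusted p = 0.000201) and 20.7% between LIN-54 and LIN-52 (251, adjusted p = 0.000201), all by exact McNemar tests. In the comparison with LIN-9, 252 regions had LIN-35 inside only the DPL-1 and LIN-54 pair and 161 only inside the MuvB pair. With 1 pooled list per subunit, the McNemar p values cover regions and not replicates. When summits closer than 10 bp were called tied, the direction turned for all 3 MuvB pairs: LIN-35 was between DPL-1 and LIN-54 in 0.908% of regions, against 0.99, 1.49 and 1.40% for LIN-9, LIN-37 and LIN-52, with no difference past the threshold.

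In the MuvB triples LIN-54 itself was the summit most often in the middle: in 448 regions with LIN-35 and LIN-9 (36.96%), in 515 with LIN-35 and LIN-37 (42.5%) and in 396 with LIN-35 and LIN-52 (32.7%). In the E2F-DP triple DPL-1 was in the middle in 391 regions (32.3%) and EFL-1 in 147 (12.1%). LIN-35 was in the middle in 441 regions (36.4%) between DPL-1 and LIN-9, and in 444 (36.6%) between DPL-1 and LIN-37. Between DPL-1 and LIN-52 it was so in 351 (29.0%), and DPL-1 was in the middle in 376 (31.0%). Between EFL-1 and LIN-9, LIN-37, LIN-52 or LIN-54, the LIN-35 share was 30.8, 26.65, 23.8 and 26.0%. In the same order EFL-1 held the middle in 28.9, 36.55, 27.9 and 21.3%, and the MuvB subunit in 20.5, 17.3, 24.8 and 27.6%. The shares with DPL-1 and LIN-9, LIN-37 or LIN-52 and those with EFL-1 and MuvB were not tested.

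On the axis from the DPL-1 to the LIN-54 summit, drawn in the 1070 regions where they differed, the median positions were 1 bp for LIN-35, 2 bp for EFL-1, 4 bp for LIN-52, 6 bp for LIN-54, 7 bp for LIN-9 and 9 bp for LIN-37. The axis sets DPL-1 at 0 and LIN-54 on the positive side, and only the places of the other 5 are measured against it. In the median, LIN-35 (exact interval 1 to 1 bp) lay next to DPL-1, and LIN-9 (6 to 8 bp) and LIN-37 (8 to 10 bp) at or beyond LIN-54. EFL-1 (2 to 3 bp) and LIN-52 (4 to 5 bp) came between. The axis follows the DPL-1 and LIN-54 summits of each region, so the median position of a summit unrelated to both would also tend to lie between them. This holds for the median and not for the single region. A median between the 2 ends therefore does not tell a fixed place in the complex.

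LIN-35 was nearer to DPL-1 in 641 of the 1070 regions (59.9%), nearer to LIN-54 in 395 (36.9%) and at equal distance in 34. EFL-1 was nearer to DPL-1 in 539 (50.4%) and to LIN-54 in 505 (47.2%). LIN-52 was nearer to LIN-54 in 621 (58.0%), LIN-9 in 733 (68.5%) and LIN-37 in 736 (68.8%). Of the 5 subunits that did not set the axis, LIN-35 was the one most often strictly between its ends, in 326 regions (30.5%), followed by LIN-52 in 276 (25.8%), EFL-1 in 266 (24.9%), LIN-9 in 196 (18.3%) and LIN-37 in 181 (16.9%). These shares were not tested against summits without a set order.

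**Figure D3:**
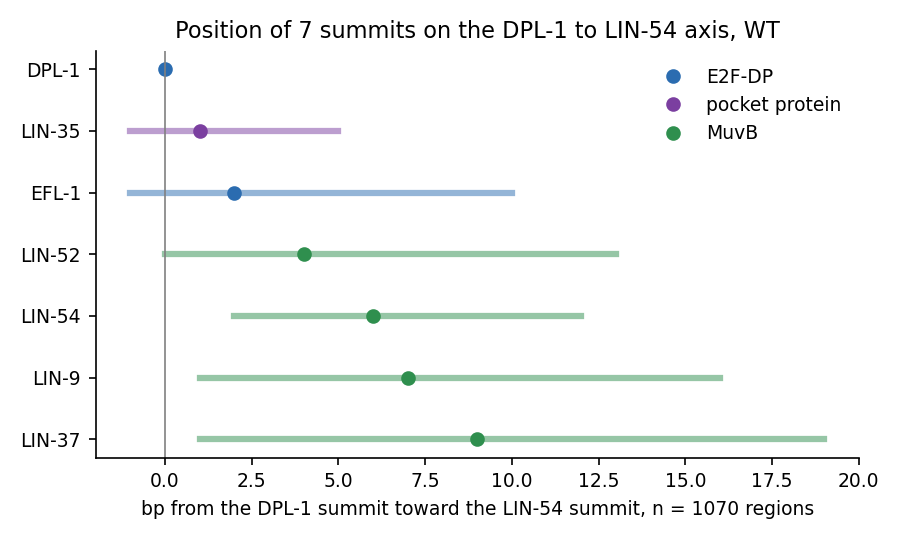
Position of each subunit's summit (rows) in bp from the DPL-1 summit toward the LIN-54 summit (x axis) in 1070 WT regions, with a point at the median and a bar from the lower to the upper quartile. The LIN-35 median of 1 bp is the nearest to DPL-1, followed by EFL-1 at 2 bp and LIN-52 at 4 bp. LIN-9 at 7 bp and LIN-37 at 9 bp lie near or past LIN-54, with wide overlap of the quartile bars.

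Over all pairs of the 7 subunits in the 1212 regions, DPL-1 and LIN-35 had the shortest median distance, 3 bp, and the 15.8% of regions with both on 1 base was also the highest share. LIN-35 and LIN-54 followed at 4 bp. LIN-35 was 6 bp from EFL-1 and from LIN-52, 8 bp from LIN-9 and 10 bp from LIN-37. EFL-1 was 6 bp from DPL-1 and also 6 bp from LIN-54, and 5 bp from LIN-52, with which it had 3 extracts in common. The longest median was 10.5 bp, between DPL-1 and LIN-37. LIN-37 has 1 WT library among the samples mapped here, and its list also draws on earlier libraries. Their part in that distance was not tested. Peaks were narrowest in the LIN-35 list (290 bp) and widest in that of LIN-37 (584 bp), and the part of width in these distances was not tested.

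At the genes that encode DRM subunits, 7 regions at 6 genes were members, 5 with LIN-35 in the middle and 2 tied, and none had DPL-1 or LIN-54 there. The median outer span was 10 bp and the largest 25 bp. Among all members 27.6% had LIN-35 in the middle, and this short list was not tested against them.

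At the *lin-9* promoter (ce10, chromosome III, 8903975 to 8904396, minus strand), the DPL-1 summit was 13 bp upstream of LIN-35 and the LIN-54 summit 12 bp downstream, the widest of these regions. A second *lin-9* region at its termination site (chromosome III, 8899596 to 8900000) had the same order, with DPL-1 1 bp upstream and LIN-54 7 bp downstream of LIN-35. Its mean percentile was 31.0, against 85.3 for the promoter.

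At the *lin-54* bidirectional promoter (chromosome IV, 13240464 to 13240876, plus strand by neighbour order) DPL-1 was 3 bp upstream and LIN-54 13 bp downstream of LIN-35. Here and below, directions follow the named gene, which need not be the nearer gene of a bidirectional promoter. At the *lin-35* bidirectional promoter on chromosome I, DPL-1 was 3 bp upstream and LIN-54 3 bp downstream. At the *efl-1* promoter (chromosome V, 16965612 to 16966030) LIN-35 was also in the middle, with DPL-1 3 bp to one side and LIN-54 19 bp to the other. DPL-1 and LIN-35 fell on the same base of the *dpl-1* promoter (chromosome II, 9169387 to 9169793), with LIN-54 10 bp away, and all 3 on 1 base at *lin-53*, which encodes a histone-binding MuvB subunit.

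Of the 21 listed cell division genes, 19 had a matched member region, all but *cyb-3* and *spd-5*. LIN-35 was in the middle in 6 regions, DPL-1 in 2, LIN-54 in 3, and 8 were tied. Over all members these shares were 27.6, 26.8, 14.8 and 30.8%, and the list was not tested against them. The median DPL-1 to LIN-54 distance was 7 bp, against 5 bp over all members. At the promoter of *kbp-3*, a kinetochore gene (chromosome II, 14389906 to 14390319), DPL-1 was 2 bp upstream and LIN-54 15 bp downstream of LIN-35. *fzy-1*, which encodes the Cdc20 activator of the anaphase-promoting complex, had DPL-1 1 bp upstream and LIN-54 13 bp downstream of LIN-35. The order was the other way at *bub-3*, with DPL-1 9 bp downstream and LIN-54 1 bp upstream of LIN-35.

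At *cdk-1*, the mitotic cyclin-dependent kinase (chromosome III, 9747093 to 9747496), DPL-1 was in the middle, 2 bp from LIN-35 and 4 bp from LIN-54. The Aurora kinase genes *air-1* and *air-2* both had LIN-54 19 bp from LIN-35, with DPL-1 on the LIN-35 base at *air-1* and 2 bp from it at *air-2*. At the outer kinetochore gene *him-10* LIN-54 was 20 bp from the base shared by DPL-1 and LIN-35. The checkpoint gene *mdf-1*, the kinetochore gene *knl-1*, the polo kinase gene *plk-1* and the chromosomal passenger gene *csc-1* each had an outer span of 1 bp. At *cyb-1* (cyclin B), *zyg-1* (the centriole duplication kinase) and *spd-2* (a centrosome protein) LIN-54 was in the middle.

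Replication and repair genes had the shortest median spacing of the 4 lists, which were not tested against each other. Of 17 listed genes 15 had a matched member region, all but *cdc-6* and *rnr-2*, with a median DPL-1 to LIN-54 distance of 1 bp and a median outer span of 4 bp. In 9 of the 15 the summits were tied, with LIN-35 in the middle in 3, DPL-1 in 3 and LIN-54 in none. Over all members LIN-35 was in the middle in 27.6%, DPL-1 in 26.8% and LIN-54 in 14.8%. The median mean percentile of this list was 83.3, and ties made up 30.8% of all members and 37.1 and 49.5% of the third and the highest signal group. All 3 summits fell on 1 base at *pcn-1*, which encodes the PCNA sliding clamp (chromosome IV, 4049471 to 4049874), at *rnr-1*, which encodes a ribonucleotide reductase subunit, and at *pri-1*, which encodes a primase subunit. *rad-51*, the recombinase gene, had DPL-1 and LIN-35 on 1 base and LIN-54 5 bp away. The widest were *lig-1*, which encodes DNA ligase, with DPL-1 11 bp upstream and LIN-54 9 bp downstream of LIN-35, and *brc-1*, the worm BRCA1 gene, with DPL-1 and LIN-54 together 15 bp from LIN-35. The 6 MCM helicase genes on the list spanned 1 to 13 bp, with LIN-35 in the middle at *mcm-7* alone. LIN-54 was upstream of DPL-1 at *mcm-6*, by 3 bp, and at *atl-1*, by 4 bp.

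All 8 chromatin genes had a member region, 4 with LIN-35 in the middle, 2 with DPL-1, 1 with LIN-54 and 1 tied. Over all members these shares were 27.6, 26.8, 14.8 and 30.8%, and this short list was not tested against them. At *mes-2*, a Polycomb-type histone methyltransferase gene (chromosome II, 14383561 to 14383964), the 3 summits spanned 2 bp with LIN-54 in the middle. At *mes-4*, another histone methyltransferase gene, LIN-35 was in the middle, 1 bp from DPL-1 and 6 bp from LIN-54. *set-21* (chromosome IV, 4390458 to 4390861) spanned 3 bp, with DPL-1 and LIN-35 on 1 base. *mes-6*, which encodes a partner of MES-2, had the widest span of all listed genes, 31 bp, with DPL-1 12 bp and LIN-54 31 bp downstream of LIN-35. *lin-61* shares its region with the cell division gene *bub-1*, where LIN-35 was in the middle of an 11 bp span, so this region counts in both lists. Read along *bub-1*, DPL-1 was 8 bp upstream and LIN-54 3 bp downstream of LIN-35. Read along *lin-61*, the order was the reverse.

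**Figure D4:**
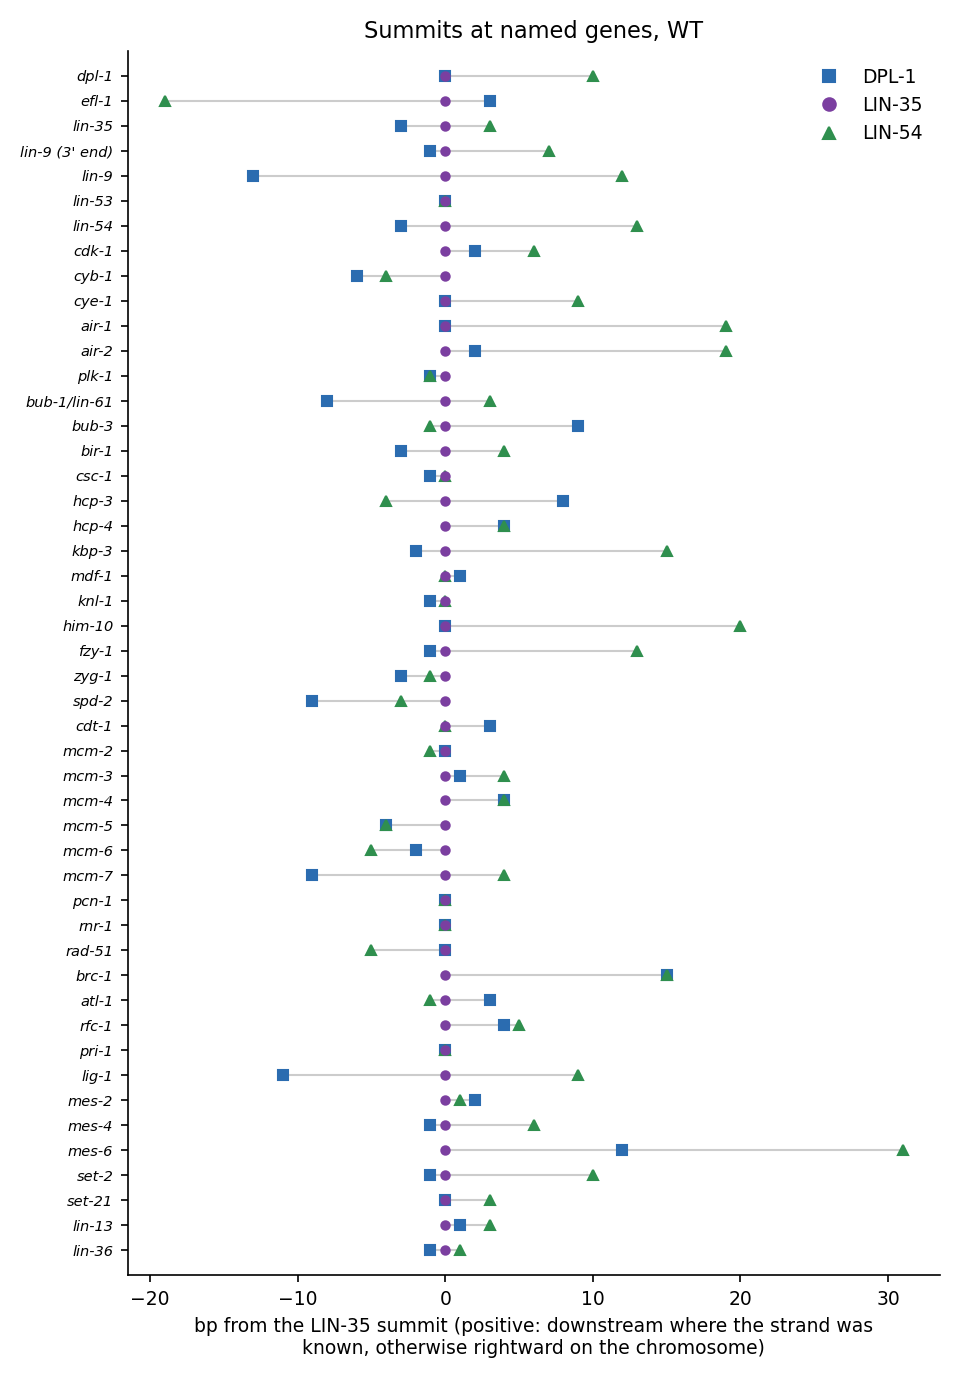
Position of the DPL-1 (square) and LIN-54 (triangle) summits in bp from the LIN-35 summit (circle at 0, x axis) at each named gene (rows), positive downstream where the strand was known and rightward elsewhere. The widest row is *mes-6* at 31 bp, and all 3 marks coincide at *lin-53*, *pcn-1*, *rnr-1* and *pri-1*.

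The 5 regions with the highest mean percentile all had spans of 0 to 2 bp. They were the promoter shared by K01G5.10 and K01G5.9 (0 bp), *emo-1*, which encodes a Sec61 subunit (1 bp), the ribosomal protein gene *rpl-3* (2 bp, LIN-35 in the middle), the alpha-tubulin gene *tba-2* (1 bp) and the promoter shared by Y53F4B.11 and Y53F4B.9 (1 bp). Their mean percentiles were 99.75 to 99.99.

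The 5 widest regions had spans of 131 to 182 bp and mean percentiles of 21.7 to 68.9. The widest (chromosome V, 17307938 to 17308494) had DPL-1 22 bp and LIN-54 182 bp from LIN-35, at percentiles of 8.13 for DPL-1, 3.75 for LIN-35 and 65.5 for LIN-54. In 4 of the 5 DPL-1 was in the middle. In the other, an intron of Y66D12A.19 (chromosome III, 11510048 to 11510543), LIN-54 was, with DPL-1 156 bp and LIN-54 121 bp from LIN-35. LIN-35 was an outer summit in all 5. These regions were picked for their span, and the order in them is a description.

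If LIN-35 joins DPL-1 to LIN-54, their spacing in its absence is of interest. In *lin-35* null embryos the lists held 995 DPL-1 and 1225 LIN-54 peaks, and 649 of the 1456 member regions had exactly 1 null peak of each. At these regions the median DPL-1 to LIN-54 distance was 10 bp in *lin-35* null (quartiles 4 and 18 bp), against 4 bp in WT (quartiles 1 and 10 bp). The distance was larger in *lin-35* null in 431 regions, smaller in 191 and equal in 27. Each genotype has 1 pooled list per subunit, so there is no replicate check, and no p is given for the genotypes.

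The gap between the genotypes was seen in each WT signal group, and these groups do not match the signal of the *lin-35* null peaks. In the lowest signal group (57 regions) the medians were 12 bp in *lin-35* null and 8 bp in WT, in the second (103 regions) 10 and 6 bp, in the third (190 regions) 10 and 4 bp, and in the highest (299 regions) 9 and 3 bp. The WT spacing narrowed with signal, while that in *lin-35* null ran from 12 to 9 bp.

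Pairs within one subcomplex were also further apart in *lin-35* null. At 442 regions with 1 null peak each of LIN-54, LIN-9, DPL-1 and EFL-1, the DPL-1 to LIN-54 median was 9 bp in *lin-35* null and 3 bp in WT, and the distance was larger in *lin-35* null in 299 regions and smaller in 125. For LIN-54 to LIN-9, both of MuvB, it was 9 bp and 3 bp, larger in 302 and smaller in 116. For DPL-1 to EFL-1, both of E2F-DP, it was 5 bp and 3 bp, larger in 238 and smaller in 160. Peaks of the *lin-35* null lists were wider, 550 bp for DPL-1 and 576 bp for LIN-54 against 390 and 404 bp in WT. All null libraries were of the later protocol and from worms grown for 96 h, against 72 h in WT. Genotype, protocol and culture time thus cannot be told apart. The paper reports lower occupancy in *lin-35* null and an unusually high signal in the second null replicate. The part of null signal and of peak width was not tested.

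**Figure D5:**
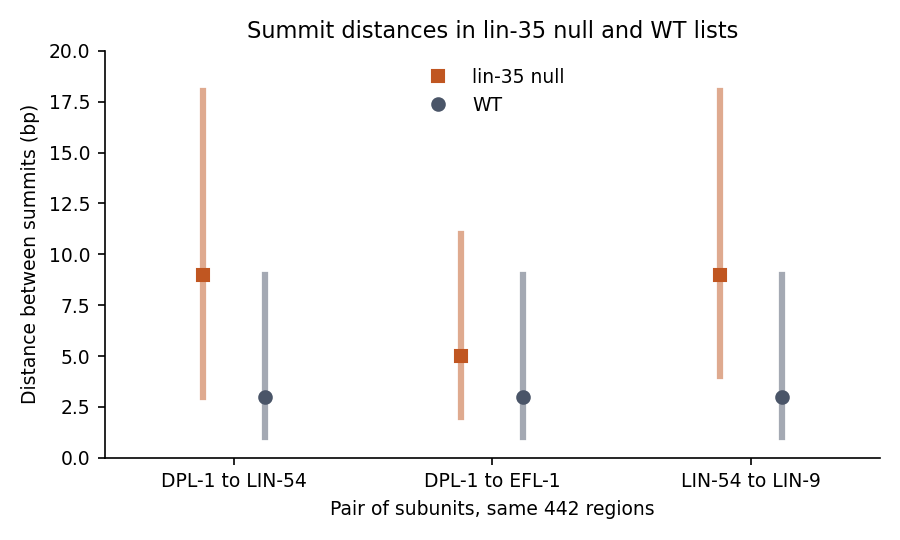
Distance between 2 summits (y axis, bp) for 3 pairs of subunits (x axis) at the same 442 regions, in the *lin-35* null lists (squares, left) and the WT lists (circles, right), with a point at the median and a bar from the lower to the upper quartile. The null medians of 9, 5 and 9 bp all lie above the WT medians of 3 bp, for a pair across both subcomplexes and for pairs within one.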

How the data were processed

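Per the paper's methods, the authors aligned reads with Bowtie 1.1.2 to ce10 and ran SPP, keeping peaks that passed a 1% irreproducible discovery rate over all replicates. The submitters' processing notes also name deepTools 2.0. Each deposited peak has a signal value from SPP, of unstated scale, and other columns with its start, end and summit offset in bp. From these, regions were merged, summits placed at start plus offset, signals ranked within each list, and positions counted from 1. Site marks and gene assignments are the study's. Strands were derived from genes with several sites, or from left-to-right gene order in WBcel235 (412 of 423 bidirectional sites), and 17 of 17 genes with both matched. Tests were exact binomial, McNemar or Fisher tests over regions, two-sided, with Benjamini-Hochberg adjustment over 11. The self-test on simulated data recovered 11 of 11 quantities in 1500 regions. In the simulation DPL-1, LIN-35 and LIN-54 summits never shared a base, unlike in these data. It did not check the signal groups, the other triples or the axis positions. Python 3.11.15, numpy 2.4.6, scipy 1.17.1 and matplotlib 3.10.9 were used. Members and gene lists were chosen with earlier results of these data known. Named genes were DRM subunit, cell division, replication and repair, and chromatin genes with a site matched to 1 member, and those of the 5 highest and 5 widest regions. Alternatives changed the overlap, ties, list length, summit, sites and rank. The genotype test was computed, but its p is not printed, since each genotype has 1 list. The printed p values share this limit, as each subunit also has 1 list. Sequences and the LIN-37 and LIN-52 null lists were not used here.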

Additional observations from a re-analysis of the deposited data

How the results depend on the processing

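No paired analysis was possible because each list pools all replicates of a subunit, and leaving out a replicate could not be run for the same reason. Of 175 recomputed values of the main results, 151 kept their direction and their side of the threshold or stayed within the interval. Using the middle of the peak, or asking all 3 peaks to overlap, changed nothing, since both hold for every member. The tie settings could not change a median distance or axis position. Such fixed values are among the 151, so that this count does not measure how stable the results are. Asking 50% of the shorter peak to overlap put LIN-35 against DPL-1 in the middle at 49.8%, on the other side of even. With ties under 10 bp that share was 38.8% of 49 regions, LIN-35 against LIN-54 70.4%, the LIN-35 share 1.31% of members, LIN-35 between DPL-1 and LIN-54 0.908% of 7-subunit regions, against 0.99% for LIN-9, 1.49% for LIN-37 and 1.40% for LIN-52, and DPL-1 was upstream of LIN-35 in 66.7% of 6 single-gene promoters. The rank odds ratio was then 0.109. With ties under 25 bp, 4 regions or fewer were left for the comparisons of the middle place and of gene orientation, with 0% for LIN-35 in the middle, alone and against either neighbour, 0% between DPL-1 and LIN-54 and 0.0825% between LIN-54 and LIN-9. The rank odds ratio and 3 of the triple tests then had no value, while the null distance was the larger in 90.3% of 62 regions. Without the lowest 25% of each list, the DPL-1 to LIN-35 median was 2 bp and LIN-35 lay between DPL-1 and EFL-1 in 26.0% of regions, turning that difference. With the 1000 highest peaks these were 2 bp and 24.6%, LIN-35 against DPL-1 was 57.4%, and the DPL-1 to LIN-54 median of the lowest signal group was 4 bp. At bidirectional promoters DPL-1 was upstream of LIN-54 in 42.9%, and, in alternatives chosen after seeing the data, in 42.3% without the lowest 25% and 42.0% with the 1000 highest peaks, and upstream of LIN-35 in 43.3% without the lowest 25% (adjusted p = 0.0468, exact binomial test), all past the threshold. Not past it among these later alternatives were, with ties under 10 bp, 42.9% for LIN-54 and 34.6% for LIN-35, with the 1000 highest peaks 44.7% for LIN-35, and all 3 settings for LIN-35 upstream of LIN-54 (43.4 to 46.7%). Causes were not tested beyond the fewer regions left. Depth is unknown, steps of a few bp are near the limit of a summit call, and regions are not replicates.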
